A study of Mus musculus with 15 samples.

Results

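The genes described here are the 100 protein-coding genes that were raised most in EpiLC relative to ESC and stayed raised on every sampled day of PGCLC induction. They were selected on these measured values. For each of the 22028 protein-coding genes of the table, the level in a group was log2 of the mean CPM plus 1, where CPM are counts scaled to the total of the sample, and the score was the lowest level among EpiLC, D2PGCLC, D4PGCLC and D6PGCLC minus the level in ESC. The 100 genes with the highest scores are the members. Every comparison with ESC was used by this choice, so levels relative to ESC are given as a description, with no test. Tests are given among the 4 other groups, where the score limits only how far a member can lie below its other levels.

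RNA-seq measured gene counts in 15 samples of the 4TF system, with 3 replicates in each of 5 groups. All cells were mouse ESC lines, or cells made from them, that carried a Stella-eGFP reporter and doxycycline-inducible transgenes of *Prdm1*, *Prdm14*, *Nanog* and *Tfap2c*. Whether the RNA-seq samples came from 1 clone, and whether replicates were separate cultures, is not stated, so p-values measure the spread between these samples. ESC were naive cells in N2B27 with the MEK inhibitor PD0325901 at 1 μM, the GSK3 inhibitor CHIR99021 at 3 μM and LIF, without doxycycline. EpiLC had spent 48 h on fibronectin with Activin A at 20 ng/ml and bFGF at 12 ng/ml, without the inhibitors or doxycycline. D2PGCLC, D4PGCLC and D6PGCLC were Stella-eGFP+ cells sorted on days 2, 4 and 6 from aggregates in GK15 medium with 2 μg/ml doxycycline. Medium, growth on fibronectin or in aggregates, transgene induction and sorting changed together between EpiLC and PGCLC. Their parts in those differences thus cannot be told apart, while the 3 PGCLC days shared all of them. Total counts were 27453967, 22555021 and 29790085 in ESC replicates 1 to 3 and 27839735, 32594579 and 29112257 in EpiLC. In D2PGCLC they were 33433779, 28907803 and 34808685, in D4PGCLC 32146690, 33311717 and 34245229, and in D6PGCLC 34476646, 42725681 and 32530096.

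EpiLC stand for the formative epiblast, the stage from which the germ line is set aside in the embryo. On the way there, cells leave naive pluripotency, polarize as an epithelium, receive FGF and Activin signals and gain DNA methylation. PGCs, the founders of sperm and eggs, then silence much of the somatic programme, lose DNA methylation and begin to express genes that guard the germ line genome or prepare meiosis.

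D6PGCLC replicate 1 stood apart from the other libraries, with at least 1 count for 18061 genes against 21103 (ESC replicate 2) to 24343 (D6PGCLC replicate 2). All 100 members had counts in this sample, which their choice by level makes likely, and their median there was 27.2 CPM, against 24.5 and 26.2 in replicates 2 and 3. The counts of members called in comparisons with D6PGCLC are given below with and without it, and counts by role or over both days only with it. In bulk RNA, fewer cells expressing a gene and less RNA of it per cell cannot be told apart.

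The markers of the labelled cell states were present. Summed over 10 naive markers, ESC had 2701, 2762 and 2698 CPM and EpiLC 467, 502 and 498, while the 9 PGCLC samples had 1501 to 1806, so this sum does not mark ESC alone. Summed over 7 EpiLC markers, EpiLC had 2785, 2969 and 2986 CPM, while the 12 other samples lay between 141 and 283. The 8 PGCLC markers summed to between 1267 and 1424 CPM in the 9 PGCLC samples and to between 311 and 344 in the 6 others, although *Prdm1*, *Prdm14* and *Tfap2c* among them are transgenes and *Dppa3* drives the reporter used to sort. The EpiLC marker sum in D2PGCLC, of 177, 179 and 141 CPM, was below that in EpiLC in every sample.

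Scores of the members ran from 1.91 to 4.62 with a median of 2.37, where the median of all protein-coding genes was -0.06 and 398 of these scored above 1. The median member had a mean of 1.80 CPM in ESC, 24.7 in EpiLC, 22.7 in D2PGCLC, 25.9 in D4PGCLC and 24.5 in D6PGCLC. In ESC the members took 0.0502% to 0.0537% of all counts in a sample, and in the 12 other samples 0.477% to 0.550%. Few were silent in ESC: *Gcm1* and *Krt7* had at most 3 counts in every ESC sample, 27 members had a mean under 1 CPM and 8 a mean over 10 CPM. All 100 had their 12 samples of EpiLC and PGCLC above the 3 ESC samples, which the choice of members favours. The members just inside the threshold were *Stat4*, *Sema4c*, *Zcwpw1* and *Tbx4*, each with a score of 1.94, and *Tdrkh* with 1.91. Just outside it lay *Fabp5* and *Parva* with 1.91 and *Nell2*, *Stox2* and *Greb1l* with 1.89, so the boundary does not mark a gap.

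**Figure D1:**
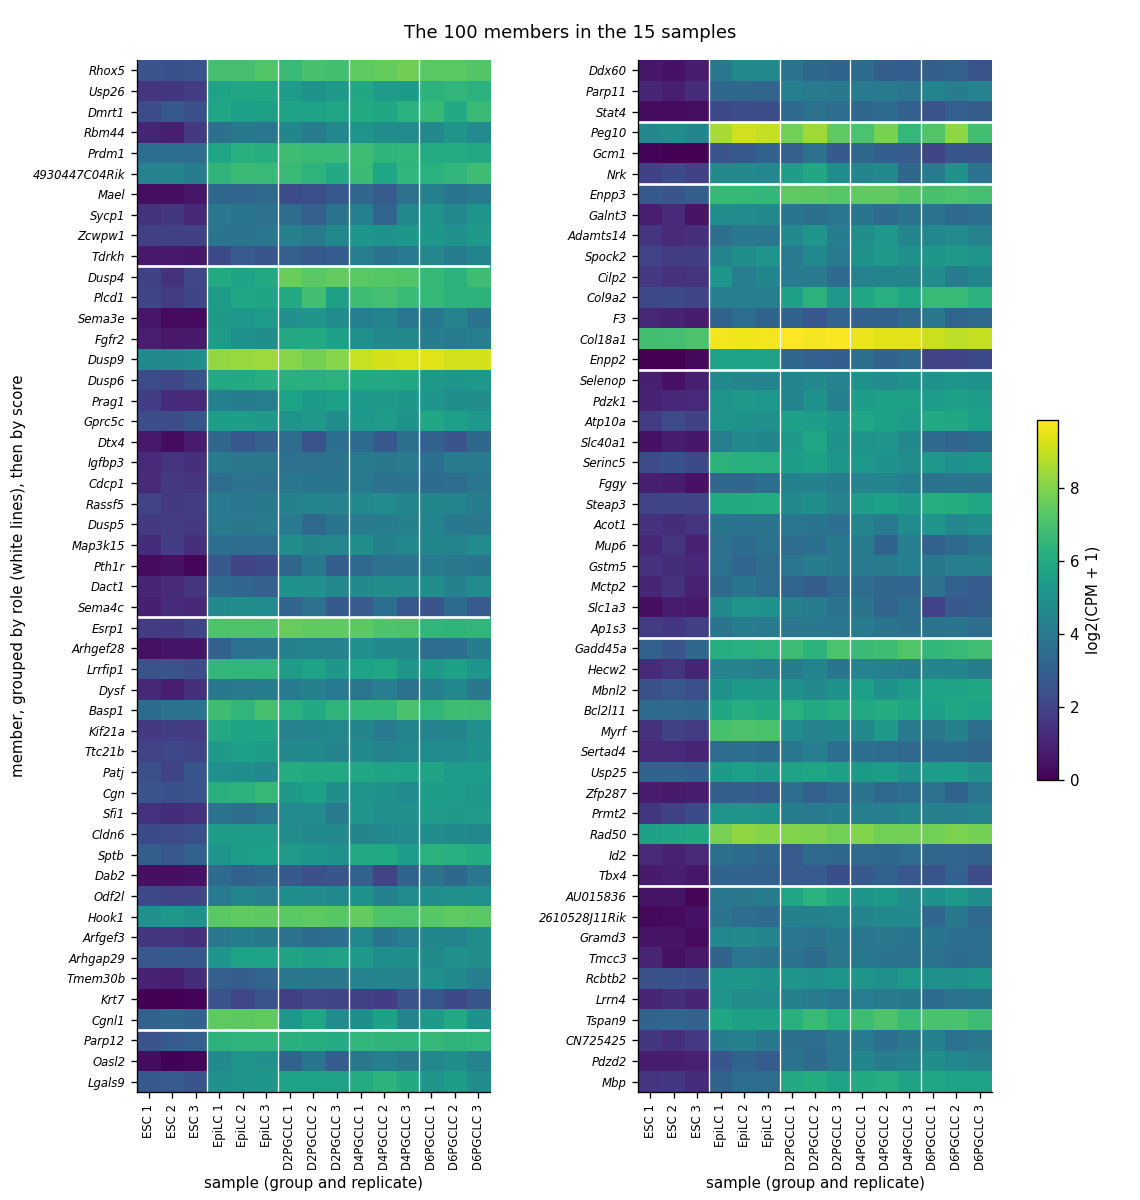
Level of each of the 100 members in each of the 15 samples, as log2(CPM + 1) on the colour scale, with members grouped by role and then by score. The 3 ESC columns are the darkest for every member, by the choice of members, and *Col18a1* is the brightest line in EpiLC and D2PGCLC.

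The choice of members was repeated on pairs of replicates. These pairs are part of the samples that gave the 100 members, so a large overlap is built in. When replicate 1, 2 or 3 of every group was left out and the 100 genes were chosen on the remaining samples, 95, 95 and 93 of the members were chosen again. In the replicate that the choice had not used, the genes so chosen had a median score of 2.36, 2.38 and 2.24, and all 100 scored above 1 each time. The lowest score in a left-out replicate was 1.12, for *Nell2* in replicate 2. Whether a left-out replicate was a separate culture is not stated, so these scores are a description.

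*Esrp1*, *Rhox5* and *Dusp4* led the set. *Esrp1* (chromosome 4 from 11331933 to 11386783, minus strand), which directs epithelial splicing, scored 4.62. Its CPM were 2.40, 2.22 and 3.22 in ESC, 139, 142 and 138 in EpiLC, 191, 174 and 174 in D2PGCLC, 166, 140.5 and 138 in D4PGCLC and 89.4, 84.0 and 90.0 in D6PGCLC. D2PGCLC were the highest and D6PGCLC the lowest of the groups other than ESC, without overlap between those 2 groups. After *Rhox5* with 4.29 and *Dusp4* with 4.05, the next scores were 3.80 for *Enpp3*, 3.74 for *Selenop*, 3.72 for *Plcd1*, 3.68 for *Usp26* and 3.67 for *Sema3e*. Per kb of exon, and as a mean over the 4 groups, *Rhox5* was the most abundant member at 196 CPM per kb, followed by *Dusp9* at 163, *Col18a1* at 104 and *Gadd45a* at 57.0, while *Krt7* was the least abundant at 0.548.

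How evenly the members were kept differed from gene to gene. The range of a member's level over the 4 groups had a median of 1.01 on the log2 scale, from 0.11 for *Rcbtb2* to 3.62 for *Enpp2*, with 50 members at 1 or less and 8 above 2. The highest of the 4 levels was in EpiLC for 29 members, D2PGCLC for 20, D4PGCLC for 19 and D6PGCLC for 32. The lowest was in EpiLC for 32, D2PGCLC for 29, D4PGCLC for 11 and D6PGCLC for 28.

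The 4 groups were then compared with edgeR's quasi-likelihood test on the 18090 genes that passed its filter on low counts, among them all 100 members, which had at least 83 counts in every sample of the 4 groups. A gene was called when its adjusted p was below 0.05 and its fitted fold change exceeded 1 on the log2 scale in either direction. In D2PGCLC relative to EpiLC, 10 members were higher, where 11.0% of all tested genes were, and 13 were lower, where 14.4% were. From D2PGCLC to D4PGCLC, 2 members rose, where 2.56% of all genes did, and 2 fell, where 0.376% did. From D4PGCLC to D6PGCLC, 0 members rose, where 2.29% of all genes did, and 6 fell, where 0.785% did. Over the whole span from D2PGCLC to D6PGCLC, 7 rose, where 10.9% of all genes did, and 12 fell, where 2.75% did. In D6PGCLC relative to EpiLC, 10 were higher, where 15.9% of all genes were, and 19 were lower, where 12.0% were. Not called in any of the 5 comparisons were 53 members, where 61.1% of all genes were not called. The shares on day 2 relative to EpiLC were thus close to those of all genes. All members are protein-coding, as are 14775 of the 18090 tested genes. All members are also well counted and many other tested genes are not, so these shares, here and by role below, are a description.

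**Figure D2:**
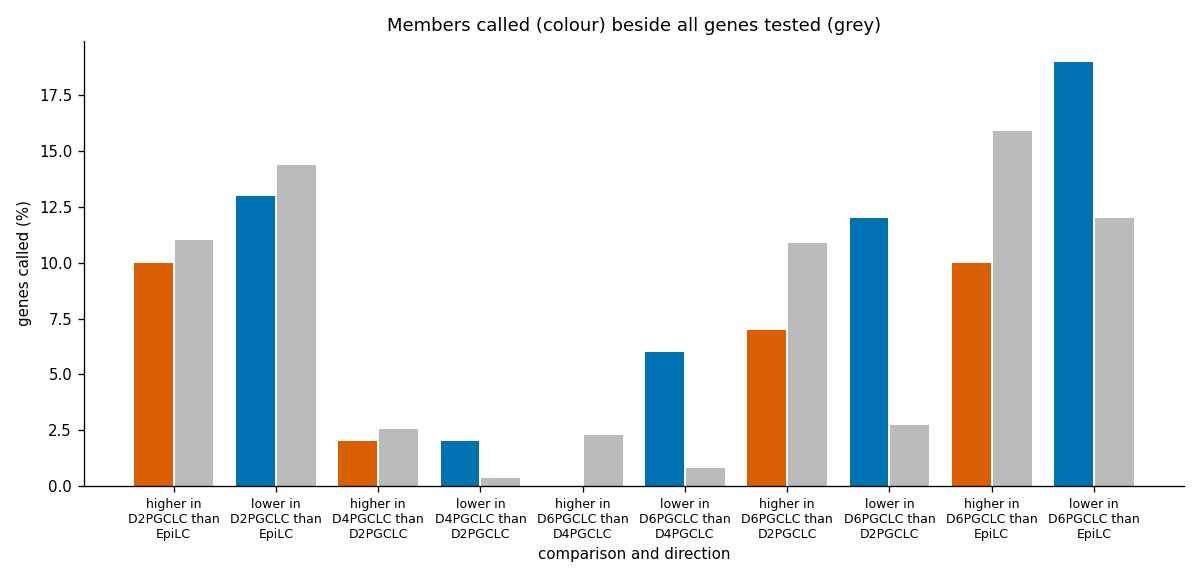
Percent of the 100 members (coloured bars, orange for higher and blue for lower) and of all 18090 tested genes (grey bars) called in each comparison and direction. Bars of members and of all genes are near each other in D2PGCLC relative to EpiLC, while 6% of members against 0.785% of genes were lower in D6PGCLC than in D4PGCLC.

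The score takes the lowest level among EpiLC and the PGCLC days. Genes near their ESC level in any of these groups are thus absent from the members but can be among all tested genes. This holds for genes that come on late and for genes that are lost late. The part of this choice in the shares of rises and falls was not tested. The counts on day 6 also depend on scaling. TMM raises the effective library size of D6PGCLC, so fitted log2 fold changes lie below ratios of CPM by 0.16 in D6PGCLC relative to D2PGCLC and by 0.21 relative to EpiLC. With column totals in place of TMM, a setting chosen after seeing the data, 10 members were higher and 7 lower in D6PGCLC than in D2PGCLC, where 13.3% and 1.95% of all genes were. Relative to EpiLC, 16 were then higher and 15 lower, where 20.3% and 9.69% of all genes were. The median log2 fold change of the members in D6PGCLC relative to D2PGCLC was -0.15 with TMM, where that of all genes was 0.00, and 0.01 with column totals, where that of all genes was 0.16. Without D6PGCLC replicate 1, 6 members were higher and 11 lower in D6PGCLC than in D2PGCLC, 0 higher and 5 lower than in D4PGCLC, and 10 higher and 19 lower than in EpiLC, and 53 were not called in any comparison.

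The small counts moved with single libraries. For the rise of 0 members from D4PGCLC to D6PGCLC, edgeR counted 0 at an unadjusted p under 0.05 with the same fold change, and 10 with any positive fold change, and DESeq2 counted 0. Without D4PGCLC replicate 3 the count was 3, and without D6PGCLC replicate 2 it was 1. From D2PGCLC to D4PGCLC, 4 members rose without D2PGCLC replicate 2. The number that fell there was 1 without D2PGCLC replicate 2, 5 without D4PGCLC replicate 2 and 1 without D4PGCLC replicate 3.

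Relative to EpiLC, 11 members were lower on both day 2 and day 6, where 8.18% of all tested genes were, and 4 were higher on both, where 8.45% were. These days share the EpiLC samples, so the second comparison is not independent of the first. The 11 were *Enpp2*, *Myrf*, *Cgnl1*, *Sema4c*, *Kif21a*, *Cgn*, *Ddx60*, *Lrrfip1*, *Galnt3*, *Prmt2* and *Peg10*, and the 4 were *Mbp*, *Dact1*, *Col9a2* and *Pth1r*.

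**Figure D3:**
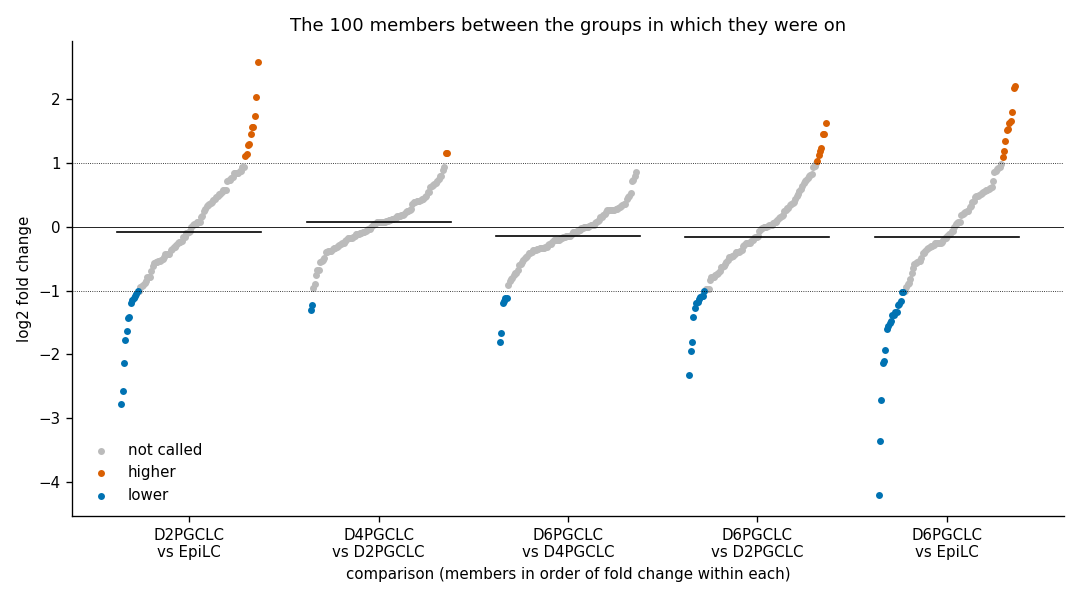
Fitted log2 fold changes of the 100 members in the 5 comparisons, in order within each comparison, with called members in orange (higher) and blue (lower), medians as black lines and dotted lines at 1 and -1. The members ran from -2.78 to 2.58 in D2PGCLC relative to EpiLC and from -1.30 to 1.15 between D2PGCLC and D4PGCLC.

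The members were sorted into 9 groups by known role, a grouping made after their values were known and used only to order the account. The germ line group held 10 members, of which 6 were not called in any comparison, near the 61.1% of all tested genes that were not. *Mael* and *Tdrkh* act in the piRNA pathway that silences transposons, *Sycp1* and *4930447C04Rik* (also known as *Six6os1*) build the synaptonemal complex of meiosis, and *Zcwpw1* reads histone marks at meiotic recombination sites. *Dmrt1* and *Prdm1* are transcription factors of germ cells, *Rhox5* is an X-linked homeobox gene, *Usp26* an X-linked ubiquitin protease gene of the testis, and *Rbm44* encodes an RNA-binding protein of germ cells.

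In the germ line group 4 members were called, each of them higher. Among falls that were not past the threshold on fold change were those of *Prdm1* from D2PGCLC to D6PGCLC and of *Mael* from EpiLC to D2PGCLC. *Tdrkh* had 0.583, 0.621 and 0.571 CPM in ESC, 3.63, 6.07 and 5.29 in EpiLC, 7.06, 5.95 and 6.67 in D2PGCLC, 17.5, 12.8 and 15.7 in D4PGCLC and 22.5, 17.3 and 21.1 in D6PGCLC. Its 6 samples of days 4 and 6 all lay above its EpiLC and D2PGCLC samples, which overlapped each other. The log2 fold change was 1.15 from D2PGCLC to D4PGCLC (SE 0.17, adjusted p = 3.72e-04) and 1.80 in D6PGCLC relative to EpiLC (SE 0.18, adjusted p = 7.71e-08). *Mael* had 0.291, 0.310 and 0.504 CPM in ESC, 9.05, 8.19 and 9.58 in EpiLC, 3.95, 4.36 and 5.54 in D2PGCLC, 8.49, 6.39 and 12.1 in D4PGCLC and 18.6, 13.3 and 16.4 in D6PGCLC. After ESC it was lowest on day 2, and its 3 samples of day 6 stood above all others, a rise of 1.63 from D2PGCLC (SE 0.21, adjusted p = 1.25e-05). Relative to EpiLC the log2 fold change of *Mael* was -1.00 on day 2 (SE 0.22, adjusted p = 7.13e-04). On day 6 it was 0.63 (SE 0.21, adjusted p = 0.0136), and neither was called. *Sycp1* had 1.71, 2.04 and 1.17 CPM in ESC, 14.2, 13.1 and 12.2 in EpiLC, 10.4, 7.16 and 11.8 in D2PGCLC, 18.2, 8.26 and 23.1 in D4PGCLC and 33.1, 23.2 and 34.9 in D6PGCLC. All 3 of its D6PGCLC samples exceeded the other 12, and D6PGCLC was above D2PGCLC by a log2 fold change of 1.46 (SE 0.27, adjusted p = 3.23e-04). *Zcwpw1* had 2.70, 2.70 and 2.72 CPM in ESC, 12.9, 12.9 and 13.8 in EpiLC, 18.4, 15.6 and 23.0 in D2PGCLC, 35.5, 32.5 and 35.8 in D4PGCLC and 36.1, 30.7 and 38.1 in D6PGCLC. Its groups stepped up without overlap from ESC to EpiLC, D2PGCLC and D4PGCLC, D4PGCLC and D6PGCLC overlapped, and the log2 fold change in D6PGCLC relative to EpiLC was 1.19 (SE 0.13, adjusted p = 2.34e-07).

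The other germ line members were kept without a call. *Usp26* had 1.82, 2.00 and 2.32 CPM in ESC, 50.9, 57.8 and 54.7 in EpiLC, 43.0, 32.4 and 39.0 in D2PGCLC, 59.1, 42.5 and 40.4 in D4PGCLC and 82.2, 88.5 and 77.4 in D6PGCLC. The D6PGCLC samples of *Usp26* were above all others. *Rhox5* had 5.06, 4.66 and 4.93 CPM in ESC, 124, 123 and 144 in EpiLC, 101, 126 and 116 in D2PGCLC, 172, 183 and 208 in D4PGCLC and 163, 163 and 148 in D6PGCLC, with overlap of EpiLC and D2PGCLC. *Dmrt1* had means of 4.64 CPM in ESC and 49.9, 52.4, 66.7 and 86.7 in EpiLC, D2PGCLC, D4PGCLC and D6PGCLC. For *Prdm1* the means were 10.9, 67.0, 103, 95.9 and 64.6 CPM, and counts do not separate the transgene from the endogenous gene, although EpiLC had no doxycycline.

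These genes stand among larger lists. Of 26 tested genes of the piRNA pathway and transposon defence, 13 rose from D2PGCLC to D6PGCLC, with a median log2 fold change of 1.00, while 1 was higher and 5 lower in D2PGCLC than in EpiLC. Of 42 tested meiotic prophase genes, 16 rose from D2PGCLC to D6PGCLC with a median of 0.72, and 10 were higher and 3 lower in D2PGCLC than in EpiLC. Of 36 tested germ cell RNA-binding proteins and regulators, 13 rose and 3 fell with a median of 0.56, and 11 were higher and 4 lower in D2PGCLC than in EpiLC. The Rhox cluster and X-linked testis families had 32 tested genes, of which 14 rose with a median of 0.85, and 3 were higher and 5 lower in D2PGCLC than in EpiLC. Of all tested genes, 10.9% rose and 2.75% fell from D2PGCLC to D6PGCLC, 11.0% were higher and 14.4% lower in D2PGCLC than in EpiLC, and the median was 0.00 in both comparisons. The members make up 2 of the 28 piRNA genes in the table, 3 of 42, 3 of 40 and 1 of 47 in the order of these lists.

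**Figure D4:**
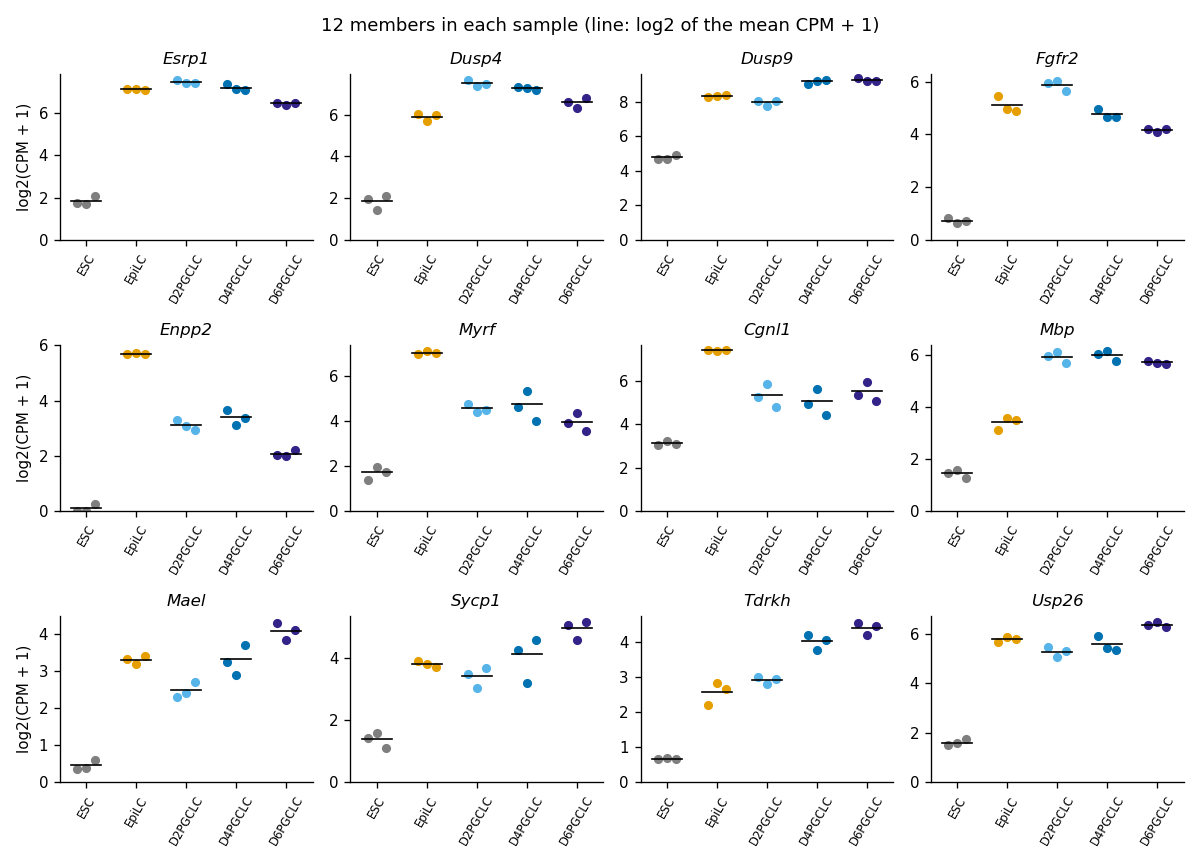
Level of 12 members in each of the 15 samples, as log2(CPM + 1), with each point a sample and each line log2 of the mean CPM plus 1 of a group. *Enpp2*, *Myrf* and *Cgnl1* are highest in EpiLC, *Mbp* in the PGCLC, and *Mael*, *Sycp1*, *Tdrkh* and *Usp26* on day 6.

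Promoters were read from RefSeq (GRCm38.p6) as the 250 bases before and 50 after each start, with a match for 82 members and 16521 protein-coding genes. For each gene the start nearest to the annotated one was taken, which lay within 50 bases of it for 56 of the 82 members. For *Fgfr2*, *Prdm1*, *Rhox5*, *Rassf5*, *Mup6*, *4930447C04Rik*, *Rcbtb2* and *Tbx4* it lay over 10 kb away, so the shares below rest in part on other starts of a gene. Those of germ line members are shown because germ line genes are known for CpG-rich promoters that hold sites of the repressors E2F6 and MGA, and because *Mael*, *Sycp1*, *Tdrkh* and *Zcwpw1* were each called higher in at least 1 comparison and *Usp26* lies on the X chromosome. Capitals mark CACGTG (the E-box of MAX and MGA) and TCCCGC (the core of the E2F site, which reads GCGGGA on the other strand) in *Mael* and *Sycp1*, GGGCGG (the GC box of SP1) in *Tdrkh* and *Zcwpw1*, and TGAGTCA (the AP-1 site) and GGTCTCTAA (the PRDM14 site) in *Usp26*. The last capitals of *Mael* share bases with a GC box, since GGGCGG and GCGGGA can overlap.
*Mael* (chr1:166238695-166238994, minus strand): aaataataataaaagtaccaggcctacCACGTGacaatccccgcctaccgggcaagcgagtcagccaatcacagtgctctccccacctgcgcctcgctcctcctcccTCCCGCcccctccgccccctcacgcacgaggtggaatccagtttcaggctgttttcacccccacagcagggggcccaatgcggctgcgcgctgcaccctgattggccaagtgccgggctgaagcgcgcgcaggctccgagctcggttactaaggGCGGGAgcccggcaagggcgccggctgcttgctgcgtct
*Sycp1* (chr3:102936051-102936350, minus strand): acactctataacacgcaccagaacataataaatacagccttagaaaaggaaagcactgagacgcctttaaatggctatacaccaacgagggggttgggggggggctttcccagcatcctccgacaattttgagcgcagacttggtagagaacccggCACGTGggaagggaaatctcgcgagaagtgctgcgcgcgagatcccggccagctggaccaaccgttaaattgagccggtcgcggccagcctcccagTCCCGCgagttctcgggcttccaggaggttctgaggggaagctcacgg
*Tdrkh* (chr3:94412994-94413293, plus strand): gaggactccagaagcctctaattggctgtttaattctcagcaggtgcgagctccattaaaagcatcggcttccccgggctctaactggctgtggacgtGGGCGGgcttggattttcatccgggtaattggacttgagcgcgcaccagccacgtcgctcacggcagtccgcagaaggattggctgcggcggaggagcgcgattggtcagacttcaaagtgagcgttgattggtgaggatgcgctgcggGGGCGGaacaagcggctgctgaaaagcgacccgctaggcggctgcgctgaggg
*Zcwpw1* (chr5:137787552-137787851, plus strand): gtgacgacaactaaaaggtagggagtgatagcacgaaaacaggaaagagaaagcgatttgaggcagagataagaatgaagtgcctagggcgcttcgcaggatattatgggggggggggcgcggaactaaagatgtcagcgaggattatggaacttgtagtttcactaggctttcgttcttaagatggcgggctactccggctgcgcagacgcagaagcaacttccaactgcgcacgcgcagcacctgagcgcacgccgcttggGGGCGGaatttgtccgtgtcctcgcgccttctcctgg
*Usp26* (chrX:51801184-51801483, minus strand): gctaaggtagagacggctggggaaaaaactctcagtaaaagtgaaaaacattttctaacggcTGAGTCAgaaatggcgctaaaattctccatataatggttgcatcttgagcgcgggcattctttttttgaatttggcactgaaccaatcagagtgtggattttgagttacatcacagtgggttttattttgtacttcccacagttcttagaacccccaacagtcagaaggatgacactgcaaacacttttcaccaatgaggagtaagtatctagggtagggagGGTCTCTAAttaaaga

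Both CACGTG and TCCCGC occurred in 3 of 82 member promoters (3.66%) and in 2.83% of all promoters, so the pair is not more frequent in the set by more than a promoter. In *Mael* the E-box began 223 bases before the start and in *Sycp1* 94 bases before it. Searched on both strands, CACGTG alone was found in 7.32% of member promoters and 8.09% of all, TCCCGC in 30.5% and 26.7%, TGAGTCA in 6.10% and 4.52%, and GGTCTCTAA in 1 member, *Usp26*, and 0.242% of all. GCCNNNGGC (AP-2) was found in 19.5% and 20.3%, ATGCAAAT (the octamer of POU factors) in 1.22% and 1.63%, TAATCC (OTX) in 3.66% and 6.49%, and CCGGAAG (ETS) in 6.10% and 12.3%. The GC box GGGCGG was in 65.9% of member promoters and 48.2% of all. Member promoters had a median of 19.0 CpG and 61.5% GC, where all promoters had 14.0 and 57.0%, and 22.0% of them had at most 5 CpG against 30.9% of all. All promoters include those of genes that failed the filter on low counts, while every member passed it. Shares among tested genes alone were not computed, so these differences cannot be read as particular to the set. *Usp26*, with 5 CpG, is one of the CpG-poor members, while *Mael*, *Sycp1*, *Tdrkh* and *Zcwpw1* have 24, 21, 25 and 23. A match of letters is a description and not evidence of binding.

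**Figure D5:**
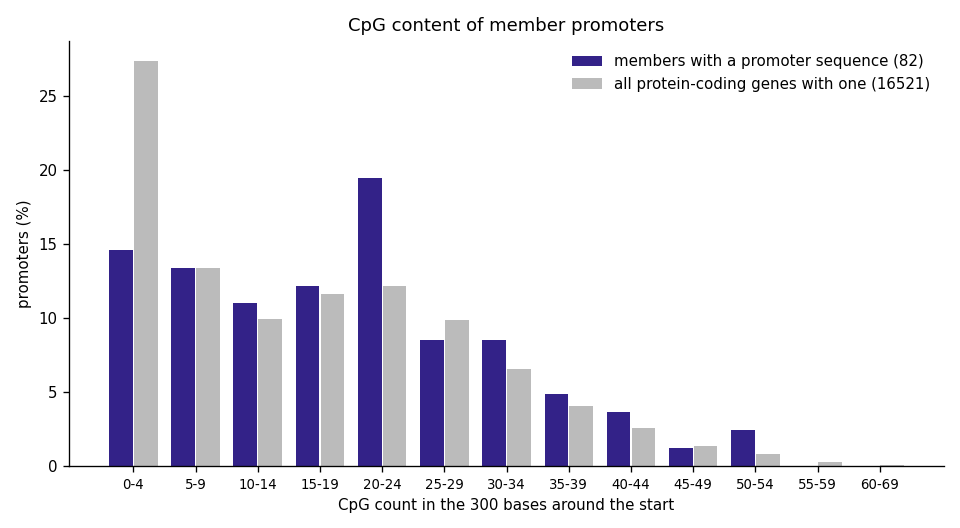
Percent of promoters in each class of CpG count, for the 82 members with a promoter sequence (dark bars) and all 16521 protein-coding genes with one, tested or not (grey bars). Fewer members than genes in general have 0 to 4 CpG (14.6% against 27.4%), and more have 20 to 24 (19.5% against 12.2%).

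MAPK phosphatases and signalling genes made up 17 members, of which 7 were not called in any comparison, where 61.1% of all tested genes were not. The phosphatases *Dusp4*, *Dusp5*, *Dusp6* and *Dusp9* remove phosphate from MAP kinases, and *Dusp4*, *Dusp5* and *Dusp6* are induced by ERK signalling and act back on it. ESC were the group grown with a MEK inhibitor, and its part in the ESC level was not tested. *Dusp4* (chromosome 8 from 34807297 to 34819894, plus strand) had 2.88, 1.68 and 3.29 CPM in ESC, 63.6, 50.6 and 62.8 in EpiLC, 200.3, 162 and 178 in D2PGCLC, 159, 152 and 143 in D4PGCLC and 96.0, 80.0 and 110.2 in D6PGCLC. It peaked on days 2 and 4 and had come down on day 6 to a level still above all EpiLC samples. Its log2 fold change was 1.56 in D2PGCLC relative to EpiLC (SE 0.14, adjusted p = 1.85e-08) and -1.08 from D2PGCLC to D6PGCLC (SE 0.13, adjusted p = 6.46e-06), which became -0.99 without D6PGCLC replicate 2. *Dusp6* had 3.86, 3.33 and 4.50 CPM in ESC, 60.7, 64.2 and 70.7 in EpiLC, 76.5, 71.1 and 76.7 in D2PGCLC, 62.6, 60.1 and 57.8 in D4PGCLC and 39.0, 35.0 and 36.9 in D6PGCLC. Every D6PGCLC sample of *Dusp6* was below the 9 samples of the 3 groups before it, at a log2 fold change of -1.18 from D2PGCLC (SE 0.09, adjusted p = 4.22e-08) and of -1.03 relative to EpiLC (SE 0.09, adjusted p = 2.12e-08), the latter -0.96 without EpiLC replicate 3. *Dusp9*, on the X chromosome, took the opposite course, with 25.3, 25.3 and 29.5 CPM in ESC, 307, 325 and 339.7 in EpiLC, 265, 219.8 and 266 in D2PGCLC, 529, 596 and 628 in D4PGCLC and 679, 583 and 588 in D6PGCLC. Its samples of days 4 and 6 overlapped each other and exceeded all earlier ones, with a log2 fold change of 1.15 from D2PGCLC to D4PGCLC (SE 0.10, adjusted p = 1.28e-06). For *Dusp5* the group means were 2.21 CPM in ESC and 15.5, 12.9, 17.4 and 16.6 in the others, with no call.

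Of 30 tested ERK feedback and response genes, to which *Dusp4*, *Dusp5* and *Dusp6* belong, 3 were higher and 10 lower in D2PGCLC than in EpiLC, with a median log2 fold change of -0.32, and 5 fell from D2PGCLC to D6PGCLC, where 11.0%, 14.4% and 2.75% of all genes did so. Among the other signalling members, the FGF receptor gene *Fgfr2* had 0.765, 0.576 and 0.638 CPM in ESC, 42.5, 30.3 and 28.4 in EpiLC, 60.5, 64.7 and 49.2 in D2PGCLC, 30.1, 24.0 and 24.2 in D4PGCLC and 17.2, 16.0 and 17.6 in D6PGCLC. D2PGCLC exceeded all other groups and D6PGCLC was below them apart from ESC, while EpiLC and D4PGCLC overlapped. The log2 fold change of *Fgfr2* was -1.23 from D2PGCLC to D4PGCLC (SE 0.14, adjusted p = 3.45e-05) and -1.95 from D2PGCLC to D6PGCLC (SE 0.14, adjusted p = 2.59e-08). *Dact1*, which binds Dishevelled in Wnt signalling, had 1.09, 1.33 and 1.78 CPM in ESC, 9.41, 8.41 and 7.14 in EpiLC, 31.6, 30.7 and 23.6 in D2PGCLC, 25.1, 28.6 and 25.7 in D4PGCLC and 28.5, 19.3 and 25.7 in D6PGCLC. All 9 PGCLC samples of *Dact1* lay above the EpiLC samples, with a log2 fold change of 1.74 on day 2 (SE 0.16, adjusted p = 5.80e-08). The parathyroid hormone receptor gene *Pth1r* was higher than EpiLC on days 2 and 6 by log2 fold changes of 1.28 and 1.62 (adjusted p = 4.71e-04 and 3.61e-05), and the first was 0.93 without D2PGCLC replicate 2.

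The semaphorin genes *Sema4c* and *Sema3e* were both lower in D6PGCLC than in EpiLC, where 12.0% of all tested genes were. *Sema4c* had 0.801, 1.37 and 1.14 CPM in ESC, 24.8, 27.9 and 26.8 in EpiLC, 8.29, 12.2 and 5.95 in D2PGCLC, 6.03, 11.1 and 5.58 in D4PGCLC and 5.25, 9.83 and 6.12 in D6PGCLC. Each PGCLC sample was below each EpiLC sample, with a log2 fold change of -1.64 on day 2 and -2.11 on day 6 (adjusted p = 7.99e-05 and 4.52e-06). *Sema3e* had a mean of 40.1 CPM in EpiLC, 31.0 in D2PGCLC and 15.8 in D6PGCLC, and its log2 fold change of -1.13 from D2PGCLC to D6PGCLC (adjusted p = 8.44e-05) was -0.99 without D6PGCLC replicate 3. Higher than EpiLC on day 2 were also the pseudokinase gene *Prag1* and the kinase gene *Map3k15*. Not called were *Plcd1*, *Dusp5*, *Rassf5*, *Igfbp3*, *Cdcp1*, *Gprc5c* and *Dtx4*. *Plcd1*, a phospholipase C gene, had 41.7, 55.1 and 53.1 CPM in EpiLC but 64.8, 115 and 47.8 in D2PGCLC, so its D2PGCLC samples spread across a wider range than those of the other groups.

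Epithelium, junctions and the cytoskeleton accounted for 20 members, of which 10 were not called, where 61.1% of all tested genes were not. *Cgn* and *Cgnl1* encode cingulin and paracingulin, which tie tight junctions to the cytoskeleton. *Cgnl1* had 7.32, 8.47 and 7.52 CPM in ESC, 168, 166 and 173 in EpiLC, 37.1, 56.4 and 26.4 in D2PGCLC, 29.5, 48.8 and 20.6 in D4PGCLC and 39.9, 61.1 and 32.7 in D6PGCLC. It dropped after the EpiLC stage to a plateau that the 3 days shared, still above ESC, with a log2 fold change of -2.13 on day 2 (SE 0.28, adjusted p = 3.33e-06). *Cgn* had means of 4.85 CPM in ESC, 83.8 in EpiLC, 37.8 in D2PGCLC, 30.5 in D4PGCLC and 41.6 in D6PGCLC. Like *Cgnl1* it stood lower on all 3 PGCLC days than in EpiLC without overlap, at a log2 fold change of -1.20 on day 2 (SE 0.14, adjusted p = 5.50e-07). The kinesin gene *Kif21a* and *Lrrfip1* were lower than EpiLC on both days as well, by -1.41 and -1.11 on day 2 (adjusted p = 1.66e-07 and 6.59e-06), the value of *Lrrfip1* losing its call without D2PGCLC replicate 3. *Esrp1* fell from D2PGCLC to D6PGCLC by 1.20 on the log2 scale (SE 0.09, adjusted p = 3.06e-08).

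Not all members of this group came down. *Patj*, which encodes a scaffold of the Crumbs polarity complex, was higher on day 2 than in EpiLC, with means of 64.1 and 28.2 CPM. On day 6, *Sfi1*, a centriole gene, and *Tmem30b*, a flippase subunit gene, were higher than in EpiLC, with 40.7 against 12.2 and 24.5 against 7.45 CPM. *Cldn6*, a claudin of early epithelia, had 3.68, 3.77 and 4.30 CPM in ESC, 45.5, 42.5 and 41.9 in EpiLC and 21.4 to 28.4 in the 9 PGCLC samples. It thus came down as well, though not past the threshold on fold change. The log2 fold change of *Cldn6* relative to EpiLC was -0.79 on day 2 and -1.00 on day 6 (adjusted p = 4.61e-06 and 2.15e-07). It is the one member among 31 tested formative and primed epiblast genes, of which 1 was higher and 23 lower in D2PGCLC than in EpiLC, with a median log2 fold change of -2.08, and 5 rose and 5 fell from D2PGCLC to D6PGCLC. The shares of all genes were 11.0% and 14.4% in the first comparison and 10.9% and 2.75% in the second. *Hook1*, a dynein adaptor gene, was among the most even members, with 161, 176 and 165 CPM in EpiLC and 135 to 178 in the PGCLC samples. The rest of this group without a call were *Arhgap29*, *Arfgef3*, *Dysf*, *Sptb*, *Ttc21b*, *Basp1*, *Odf2l* and *Krt7*. Among them, *Ttc21b* and *Arhgap29* were lower in D6PGCLC than in EpiLC, by -0.82 and -0.94 (adjusted p = 5.97e-06 and 1.25e-05).

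*Dab2* and *Krt7* are also markers of other lineages. *Dab2*, an endocytic adaptor gene used as an endoderm marker, had 0.328, 0.310 and 0.403 CPM in ESC, 9.84, 7.46 and 8.83 in EpiLC, 5.89, 4.46 and 5.20 in D2PGCLC, 7.31, 3.21 and 7.94 in D4PGCLC and 12.7, 8.68 and 14.4 in D6PGCLC. D6PGCLC was above D2PGCLC in all samples, at a log2 fold change of 1.03 (adjusted p = 0.00392) that was 0.93 without D2PGCLC replicate 2, 1.00 without D6PGCLC replicate 1 and 0.87 without D6PGCLC replicate 3, below the threshold each time. The 10 endoderm markers together summed to 11.8, 10.5 and 11.2 CPM in D2PGCLC and 43.9, 27.5 and 40.7 in D6PGCLC, with *Gata6* the most abundant in D6PGCLC replicate 1 at 15.5 CPM and *Dab2* itself in the other D6PGCLC samples, and 1 to 3 markers at 0. *Krt7*, a keratin gene of trophoblast and simple epithelia, had 4.85, 3.31 and 4.74 CPM in EpiLC and 2.49 to 5.57 in the PGCLC samples. The 12 trophoblast markers summed to 52.9 to 68.7 CPM in EpiLC, 45.2 to 58.8 in D2PGCLC, 55.7 to 63.9 in D4PGCLC and 70.4 to 79.9 in D6PGCLC, with 1 or 2 of them at 0 in each of these samples and *Krt8*, *Krt18* or *Eomes* the most abundant. The part of such cells in the levels of *Dab2* and *Krt7* was not tested. From EpiLC to D2PGCLC, D4PGCLC and D6PGCLC, neural markers summed to 126 to 150.1, 97.9 to 132, 99.2 to 112 and 69.5 to 86.5 CPM, and fibroblast markers to 33.4 to 35.9, 4.48 to 7.06, 6.42 to 8.86 and 11.8 to 16.0. Markers of Sertoli and other gonadal cells summed to 23.0 to 27.1, 1.61 to 2.72, 3.08 to 3.56 and 6.67 to 8.99 CPM in the same order. The sums for endoderm, trophoblast, fibroblasts and gonadal cells were thus all higher in D6PGCLC than in D2PGCLC samples, and the neural sum was lower. ESC replicates 1 to 3 had 31.7, 36.1 and 37.0 CPM for endoderm and 30.1, 30.9 and 29.7 for fibroblasts. For trophoblast they had 55.9, 60.7 and 59.6 CPM, and for gonadal cells 5.50, 6.61 and 4.97. *Col5a1* alone made up 10.0, 13.7 and 11.9 CPM of the fibroblast sums in D6PGCLC replicates 1 to 3. *Gata4* is in the endoderm and the gonadal list.

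Innate immunity provided 6 members, of which *Parp12* and *Parp11* were not called, where 61.1% of all tested genes were not. *Oasl2*, *Ddx60* and *Parp12* are genes known to respond to interferon. *Oasl2* had 0.255, 0.0443 and 0.134 CPM in ESC, 25.4, 33.0 and 31.1 in EpiLC, 7.87, 13.1 and 6.29 in D2PGCLC, 14.6, 18.2 and 14.3 in D4PGCLC and 22.7, 27.2 and 19.7 in D6PGCLC. Its D2PGCLC samples lay below those of EpiLC, D4PGCLC and D6PGCLC, and of the D6PGCLC samples only replicate 2 reached the EpiLC range, with log2 fold changes of -1.77 in D2PGCLC relative to EpiLC (adjusted p = 2.27e-06) and 1.19 from D2PGCLC to D6PGCLC (adjusted p = 3.63e-04), the latter 0.99 without D2PGCLC replicate 3. *Ddx60* had 14.6, 25.3 and 23.7 CPM in EpiLC and only 6.90, 7.37 and 4.98 in D6PGCLC. Its D6PGCLC samples were all below EpiLC, at a log2 fold change of -1.15 on day 2 (adjusted p = 3.39e-04), or -0.99 without EpiLC replicate 2, and -1.93 on day 6 (adjusted p = 1.12e-06). *Stat4*, a transcription factor gene of cytokine signalling, was higher than EpiLC on day 2, and *Lgals9*, which encodes galectin-9, fell between days 4 and 6 from a mean of 71.1 to 35.0 CPM.

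Of the 3 placental members each was called in at least 1 comparison, where 61.1% of all tested genes were called in none, and most of these calls were lost without single libraries. *Peg10*, a paternally expressed gene derived from a retrotransposon and needed for the placenta, had 23.6, 27.8 and 21.8 CPM in ESC, 383, 560.1 and 506 in EpiLC, 217, 353 and 173 in D2PGCLC, 134, 235 and 94.2 in D4PGCLC and 144, 289 and 115 in D6PGCLC. Replicate 2 was the highest of every group from EpiLC on, and no PGCLC sample reached the lowest EpiLC sample. The log2 fold change was -1.01 on day 2 (SE 0.33, adjusted p = 0.0139) and -1.60 on day 6 (SE 0.33, adjusted p = 3.99e-04). The call on day 2 was lost without D2PGCLC replicate 1 (-0.91), D2PGCLC replicate 3 (-0.81), EpiLC replicate 2 (-0.88) or EpiLC replicate 3 (-0.97). *Nrk*, an X-linked kinase gene of the placenta, had 25.5, 24.8 and 22.5 CPM in EpiLC, 43.7, 59.0 and 26.7 in D2PGCLC, 21.7, 24.6 and 8.91 in D4PGCLC and 15.6, 31.3 and 12.4 in D6PGCLC. Replicate 2 was again the highest on each day, D2PGCLC and D6PGCLC overlapped, and the log2 fold change was -1.30 from D2PGCLC to D4PGCLC (adjusted p = 0.0181) and -1.27 from D2PGCLC to D6PGCLC (adjusted p = 0.00608). The first call was lost without D2PGCLC replicate 1 (-1.29, adjusted p = 0.0529), D2PGCLC replicate 2 (adjusted p = 0.0835) or D4PGCLC replicate 3 (-0.96), and the second without D2PGCLC replicate 2 (-0.99). *Gcm1*, a transcription factor gene of trophoblast, had 2, 0 and 0 counts in ESC and 3.19 to 12.2 CPM in the other groups. From D2PGCLC to D6PGCLC its log2 fold change was -1.08 (adjusted p = 0.00609), which was -0.71 without D2PGCLC replicate 2 and -0.88 without D6PGCLC replicate 1, with the call lost both times. *Peg10* is the one member among 52 tested imprinted genes, of which 1 was higher and 18 lower in D2PGCLC than in EpiLC, with a median of -0.47, and 7 rose and 2 fell from D2PGCLC to D6PGCLC, where 11.0%, 14.4%, 10.9% and 2.75% of all genes were so called.

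Replicate 2 was the highest sample on all 3 PGCLC days for 16 members, among them *Peg10*, *Nrk*, *Cgnl1*, *Sema4c* and *Oasl2*, where this held for 7.02% of all tested genes. For replicates 1 and 3 it held for 7 and 8 members and for 6.09% and 7.32% of all genes. This count was made after the values were seen, and the labels do not say that equal numbers share a culture.

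Of the 9 members for the matrix and extracellular enzymes, 6 were not called, near the 61.1% of all tested genes that were not. *Enpp2*, which encodes autotaxin, the enzyme that makes lysophosphatidic acid, changed most in the set. It had 0, 0 and 0.201 CPM in ESC, 50.2, 52.1 and 50.3 in EpiLC, 8.85, 7.44 and 6.64 in D2PGCLC, 11.5, 7.59 and 9.29 in D4PGCLC and 3.10, 2.93 and 3.60 in D6PGCLC. The groups descended from EpiLC to days 2 and 4, which overlapped, and to day 6 without overlap, yet every sample stayed above ESC. The log2 fold change relative to EpiLC was -2.78 on day 2 (SE 0.20, adjusted p = 1.82e-09) and -4.20 on day 6 (SE 0.22, adjusted p = 1.89e-11). *Col9a2*, a collagen gene of cartilage, had 3.39, 3.68 and 3.12 CPM in ESC, 18.3, 17.6 and 18.1 in EpiLC, 48.4, 79.4 and 37.7 in D2PGCLC, 55.5, 72.6 and 54.5 in D4PGCLC and 101, 102 and 79.2 in D6PGCLC. All PGCLC samples exceeded the EpiLC samples, with a log2 fold change of 1.57 on day 2 (adjusted p = 1.98e-06) and 2.17 on day 6 (adjusted p = 2.90e-08). *Galnt3*, a gene of mucin-type glycosylation, was lower on both days, by -1.09 and -1.47 (adjusted p = 4.90e-05 and 1.43e-06). *Col18a1*, the basement membrane collagen XVIII gene, had 118, 121 and 136 CPM in ESC, 819.8, 807 and 815 in EpiLC, 930.0, 837 and 884 in D2PGCLC, 766, 689 and 691 in D4PGCLC and 541, 472 and 503 in D6PGCLC. Its ESC level was the highest of any member, and days 2, 4 and 6 descended without overlap while its fold changes stayed under the threshold. *Enpp3*, *Adamts14*, *Cilp2*, *Spock2* and *F3* were the other members here without a call.

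Transport and metabolism contributed 13 members, 9 of them not called, near the 61.1% of all tested genes that were not. The iron genes *Slc40a1*, the exporter ferroportin, and *Steap3*, a ferrireductase, moved in opposite directions between days 2 and 6. *Slc40a1* had 0.401, 0.709 and 0.537 CPM in ESC, 17.7, 24.2 and 21.9 in EpiLC, 38.2, 56.8 and 32.0 in D2PGCLC, 33.5, 34.1 and 24.8 in D4PGCLC and 9.80, 8.31 and 10.1 in D6PGCLC. Every D6PGCLC sample was below every sample of the 3 earlier groups, with a log2 fold change of -2.33 from D2PGCLC (SE 0.19, adjusted p = 7.79e-08). *Steap3* had 2.99, 3.15 and 3.02 CPM in ESC, 62.2, 63.7 and 66.6 in EpiLC, 24.9, 29.3 and 19.5 in D2PGCLC, 41.7, 49.0 and 38.7 in D4PGCLC and 69.8, 67.5 and 56.5 in D6PGCLC. Apart from ESC it was lowest on day 2, and D6PGCLC overlapped EpiLC, with a log2 fold change of 1.23 from D2PGCLC to D6PGCLC (SE 0.13, adjusted p = 9.93e-07). *Slc1a3*, a glutamate transporter gene, had 0.328, 0.709 and 0.638 CPM in ESC, 24.7, 33.3 and 31.5 in EpiLC, 18.8, 17.2 and 13.0 in D2PGCLC, 12.7, 8.41 and 10.9 in D4PGCLC and 2.93, 5.69 and 7.01 in D6PGCLC. The groups descended at each step without overlap, with log2 fold changes of -2.72 in D6PGCLC relative to EpiLC (SE 0.25, adjusted p = 3.72e-08) and -1.12 from D4PGCLC to D6PGCLC (adjusted p = 0.00662). The latter was -0.99 without D4PGCLC replicate 1 and -0.83 without D6PGCLC replicate 1, and lost its call in both. *Serinc5*, a lipid scramblase gene, was lower in D6PGCLC than in EpiLC, with means of 35.0 and 76.1 CPM. *Selenop*, the selenium carrier gene, *Pdzk1*, *Atp10a*, *Fggy*, *Acot1*, *Gstm5*, *Mup6*, *Ap1s3* and *Mctp2* were not called.

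Transcription, genome upkeep and protein turnover had 12 members, with 10 not called, where 61.1% of all tested genes were not. *Myrf*, a membrane-bound transcription factor gene, was called, with 1.64, 2.88 and 2.32 CPM in ESC, 127, 137 and 130.1 in EpiLC, 26.2, 20.0 and 21.8 in D2PGCLC, 23.8, 39.0 and 15.2 in D4PGCLC and 14.1, 19.3 and 10.8 in D6PGCLC. The PGCLC samples lay far below EpiLC and overlapped between days 4 and 6, with a log2 fold change of -2.58 on day 2 (SE 0.25, adjusted p = 9.64e-08) and -3.36 on day 6 (SE 0.26, adjusted p = 3.95e-09). The arginine methyltransferase gene *Prmt2* was also lower, by -1.05 and -1.02 (adjusted p = 3.34e-06 and 3.61e-06), close to the threshold. Its call on day 2 was lost without D2PGCLC replicate 2, and that on day 6 without EpiLC replicate 2, D6PGCLC replicate 1 or D6PGCLC replicate 2 (-0.99 each). *Gadd45a*, a stress-response gene linked to DNA repair and demethylation, had 7.32, 5.23 and 8.56 CPM in ESC, 69.6, 71.1 and 79.7 in EpiLC, 108, 82.3 and 133 in D2PGCLC, 105, 110.4 and 143 in D4PGCLC and 90.9, 100.4 and 112 in D6PGCLC. All PGCLC samples lay above EpiLC with no call. Among 24 tested DNA methylation writers, readers and erasers, of which *Gadd45a* is the one member, 2 were higher and 5 lower in D2PGCLC than in EpiLC, with a median of 0.04, and 2 rose from D2PGCLC to D6PGCLC, near the 11.0%, 14.4% and 10.9% of all genes. *Rad50*, a subunit of the complex that binds broken DNA ends, was the member with the smallest range but for *Rcbtb2* and *Hook1*, at 214 to 295 CPM in the 12 samples. *Id2*, *Tbx4*, *Zfp287*, *Sertad4*, *Mbnl2*, *Usp25*, *Hecw2* and *Bcl2l11* were not called.

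A further 10 members had another role or none assigned. Of these, *Tmcc3*, *Rcbtb2* and *CN725425* were not called, 3 of 10, where 61.1% of all tested genes were not. *Mbp*, which encodes a myelin protein and, from other starts of the locus, Golli proteins, had 1.78, 2.00 and 1.41 CPM in ESC, 7.79, 10.9 and 10.4 in EpiLC, 61.1, 68.3 and 50.9 in D2PGCLC, 65.0, 70.5 and 53.3 in D4PGCLC and 54.4, 51.7 and 50.2 in D6PGCLC. It stepped up a first time in EpiLC and again on day 2, where it stayed, with a log2 fold change of 2.58 relative to EpiLC on day 2 (SE 0.15, adjusted p = 4.71e-11) and 2.21 on day 6 (SE 0.14, adjusted p = 3.20e-10). *AU015836*, on the X chromosome, had 14.3, 14.1 and 16.6 CPM in EpiLC, 55.0, 78.3 and 57.9 in D2PGCLC and 32.4, 39.6 and 27.5 in D6PGCLC. It rose by 2.04 on day 2 (adjusted p = 4.05e-08) and fell back by 1.10 to day 6 (adjusted p = 1.11e-04), the latter -0.93 without D2PGCLC replicate 2 and -0.98 without D6PGCLC replicate 3. *2610528J11Rik* fell between days 4 and 6 by 1.20 (adjusted p = 5.04e-04), from a mean of 23.5 to 10.9 CPM, and its D6PGCLC samples lay below all of D4PGCLC. Higher in D6PGCLC than in EpiLC were *Pdzd2*, by 1.66 (adjusted p = 2.78e-07), and *Tspan9*, and lower were *Gramd3* and *Lrrn4*.

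The mean CPM of the germ line members summed to 48.0 in ESC, 453 in EpiLC, 452 in D2PGCLC, 586 in D4PGCLC and 615 in D6PGCLC. Of these sums, *Rhox5* alone had 4.88, 130.5, 114, 188 and 158. *Prdm1*, whose counts do not separate the transgene from the endogenous gene, had 10.9, 67.0, 103, 95.9 and 64.6. In the same order the sums were 56.4, 746, 889, 1173 and 1083 CPM for the signalling members, of which *Dusp9* alone had 26.7, 324, 250.4, 584 and 616. They were 100.3, 1108, 874, 869 and 869.7 CPM for the epithelial members, 13.7, 180.2, 168, 205 and 178 for innate immunity, and 27.5, 513, 299, 180.0 and 207 for the placental members. Matrix members summed to 142, 1078, 1186, 1054 and 831 CPM, and transport and metabolism to 21.6, 352, 295, 336 and 337. The last 2 groups, transcription with genome upkeep and the members with another role or none, had 92.2, 697, 593, 589.7 and 560.3 CPM and 19.6, 207, 328, 347 and 325. A sum is led by its most abundant members, and these sums were not tested.

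The median exon length of the members was 5583 bases, that of all protein-coding genes 3488 and that of the 14775 tested ones 4320. The score uses counts without correction for length, so length can enter the choice. The median gene span was 47.3 kb, against 17.3 kb for all and 24.0 kb for tested protein-coding genes, and 29 members spanned more than 100 kb, where 11.3% and 13.9% of these genes did. On the X chromosome lay 6 members (6.00%), among them *Rhox5*, *Usp26*, *Dusp9*, *Nrk* and *AU015836*, where 4.30% of protein-coding genes lie. Within 1 Mb of another member were 18, in 9 pairs. The closest were *Lrrfip1* and *Rbm44*, 16.1 kb apart, *Fggy* and *Hook1*, 40.3 kb, and *Galnt3* and *Ttc21b*, 59.3 kb, each with 0 protein-coding genes between them. Further apart were *Kif21a* and *CN725425*, *F3* and *Arhgap29*, *Tdrkh* and *Cgn*, *Parp11* and *Tspan9*, *4930447C04Rik* and *Tmem30b*, and *Prmt2* and *Col18a1*. Neighbours did not always share a course, since *Lrrfip1* was lower than EpiLC on both days and *Rbm44* was not called. By gene name, the largest family was that of the 4 *Dusp* genes, followed by pairs of *Enpp*, *Parp*, *Sema*, *Usp*, *Col* and *Slc* genes.

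Some members have counts that other genes could share. The libraries were made with a directional kit, but whether counting used the strand, and how reads of several genes were counted, is not given. *Pdzk1* shares 37.5% of its exon bases with *Gpr89* on the other strand, *Tdrkh* 36.7% with *Oaz3*, *Selenop* 15.4% with *Ccdc152* and *Map3k15* 13.9% with *Pdha1*, whose mean of 9732 counts far exceeds the 555 of *Map3k15*. *Oaz3*, in contrast, had a mean of 1.27 counts where *Tdrkh* had 324. Non-coding transcripts overlap *Dact1*, *Dusp5*, *Gadd45a* and *Gstm5* on the other strand and *Stat4* on its own. *Fgfr2* and *Sfi1* share 3.04% and 2.21% of their exon bases with *Ctbp2* and *Drg1* on the same strand. Of their stretches of 50 bases, *Stat4* had 28.6%, *Cgn* 19.9% and *Ap1s3* 13.8% in transcripts of other genes, and *Acot1* 49 of its 257 in transcripts of other genes, so these levels are uncertain.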

How the data were processed

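RNA-seq was measured in 15 samples, 3 per group. Per the submitters' processing notes, the authors used Trim Galore, FastQC and STAR on the mm10 ENSEMBL genome, with no versions given, and deposited raw counts per gene. The counting tool, annotation release, strand setting and handling of multimapping reads are not given in the sources used here. CPM used column totals. Members were the 100 protein-coding genes (GENCODE M21) with the highest score. Total counts per sample stand in the report, and 3 counts, the floor, are 0.0702 to 0.133 CPM, which covers counting error only. Groups were compared with edgeR 4.0.16 (filterByExpr, TMM, quasi-likelihood F test, Benjamini-Hochberg), tested on simulated data. DESeq2 1.42.0, a replicate block, no filter, other scalings and single libraries left out were alternatives.

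Comparisons, alternatives and the rule for naming genes were written before the results given here were computed, although earlier results of these data were known. Exceptions are column totals in edgeR and the alternatives for members not called in any comparison, which were chosen after seeing the data. The members and the 8 gene lists were chosen with earlier results of these data known. The rule named the 20 highest scores, 5 genes on each side of the threshold, up to 5 called members per comparison and direction with at least 100 mean counts, list members, and neighbours or families. As an exception, 1 member that the rule names is not reported here. Other members were named after their values were seen, some without values.

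Limits: 3 replicates of unstated origin per group, bulk RNA, and transgene reads not separable from endogenous ones. Medium, growth on fibronectin or in aggregates, induction and sorting also change together between EpiLC and PGCLC.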

Additional observations from a re-analysis of the deposited data

Results flagged for a closer look

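The effects relative to EpiLC on day 6 and on day 2 were compared with each other by edgeR, which is the same test as D6PGCLC against D2PGCLC, and 19 members were singled out because these effects differed past the threshold. The difference on the log2 scale was positive for *Mael* (1.63), *Sycp1* (1.46), *Tdrkh* (1.46), *Steap3* (1.23), *Oasl2* (1.19), *Dusp9* (1.13) and *Dab2* (1.03). It was negative for *Slc40a1* (-2.33), *Fgfr2* (-1.95), *Slc1a3* (-1.81), *Enpp2* (-1.42), *Nrk* (-1.27), *Esrp1* (-1.20), *Dusp6* (-1.18), *Sema3e* (-1.13), *AU015836* (-1.10), *Dusp4* (-1.08), *Gcm1* (-1.08) and *2610528J11Rik* (-1.00). Without single libraries, the calls of *Dusp4*, *Sema3e*, *AU015836*, *2610528J11Rik*, *Oasl2*, *Gcm1*, *Nrk* and *Dab2* were lost, as given in the report or with the dependence on processing. The cause of these differences was not tested.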

How the results depend on the processing

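The choice of members shared 92 of 100 genes with 0.5 added to CPM, 77 with 4 added, 94 with TMM-normalized library sizes and 98 with the mean of log2 values. It shared 93 to 95 without replicate 1, 2 or 3 of every group, and 96 to 99 without single samples.

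With no fold-change threshold, members higher and lower were 34 and 33 in D2PGCLC relative to EpiLC, 14 and 11 in D4PGCLC relative to D2PGCLC, 4 and 19 in D6PGCLC relative to D4PGCLC, 23 and 32 in D6PGCLC relative to D2PGCLC, and 33 and 34 in D6PGCLC relative to EpiLC. This setting counts more genes by its construction. With column totals in edgeR, chosen after seeing the data, 7 members were lower in D6PGCLC than in D2PGCLC and 16 higher in D6PGCLC than in EpiLC, by the shift of scale given in the report.

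When single libraries were left out, members higher in D4PGCLC than in D2PGCLC ranged from 2 to 4, members lower from 1 to 5, and members higher in D6PGCLC than in D4PGCLC from 0 to 3. The cause was not tested.

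With the replicate block, members higher and lower were 10 and 14, 2 and 2, 0 and 6, 7 and 12, and 10 and 19 in the order above. DESeq2 gave 10 and 14, 2 and 2, 0 and 6, 8 and 11, and 10 and 20. For the count of 0, edgeR had 0 members at an unadjusted p under 0.05 with the same fold change.

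Of 726 alternative values of 66 fold changes, 691 kept direction and call, 35 lost the call and 0 had the opposite sign. All 66 were called in the main fit and the alternatives reuse its samples, so agreement is favoured in advance. Without the filter on low counts, edgeR gave no gene its own estimate of the spread. The adjusted p of *Peg10* in D2PGCLC relative to EpiLC was then 2.85e-24, against 0.0139 in the main fit. In every alternative run, 49 fold changes kept their call. Column totals were not among these alternatives. They raise fold changes of D6PGCLC by 0.16 relative to D2PGCLC and by 0.21 relative to EpiLC. Calls near the threshold can change with them, such as *Dusp6* relative to EpiLC (-1.03, called) and *Usp26* relative to D2PGCLC (0.95, not called). *2610528J11Rik* in D6PGCLC relative to D2PGCLC lost it in 6 alternatives, among them -0.85 without D6PGCLC replicate 1, -0.90 without D6PGCLC replicate 3 and -0.95 without D2PGCLC replicate 3. With a window of 100 bases before the start, GGTCTCTAA was again found in 1 member and in 0.0605% of all promoters.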

Other observations

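Among genes of the table that are not protein-coding, 2 scored at or above the lowest member. *H19*, an imprinted non-coding RNA gene, scored 6.65, above every member, with mean CPM of 0.121 in ESC, 111 in EpiLC, 443 in D2PGCLC, 132 in D4PGCLC and 216 in D6PGCLC. *Halr1* scored 2.48, with means of 2.19 CPM in ESC, 19.5 in D2PGCLC, 25.6 in D4PGCLC and 16.8 in D6PGCLC.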
